A study of Mus musculus with 60 samples.

Results

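The liver transcriptomes of female and male mice fed the diet with the most common bean were compared. All mice were wild-type (WT) C57BL6/J and ate obesogenic diets of equal energy. Cooked white kidney bean supplied 0%, 35% or 70% of dietary protein, and the livers analysed here are the 20 at 70% bean among 60. Of these, 10 carry the animal codes P51 to P97 and are females by label, and the other 10 carry codes P01 to P49 and are males by label. The diets began at 8 weeks of age and lasted 12 to 14 weeks, the obesogenic base was shared by every group, and each library came from the frozen liver of 1 animal. Reads were summed per gene and 20809 autosomal genes were kept, so that genes on the sex chromosomes play no part in what follows. The animal codes of females and males do not interleave, so sex and the order of the codes cannot be told apart.

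The liver is one of the most sexually dimorphic organs of the mouse. The pituitary releases growth hormone in separated pulses in males and nearly continuously in females, and hepatocytes read this pattern through the transcription factor STAT5. BCL6, a repressor found mainly in male liver, binds many of the same DNA sites, and CUX2, a factor of female liver, represses many male-biased genes. Among the genes kept apart in this way are major urinary proteins (the pheromone carriers of male urine), cytochromes P450, sulfotransferases and steroid-metabolizing enzymes.

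The 20 libraries held about 26241000 to 39851900 counts, and total count was not found to differ between the sexes (two-sided permutation test, p = 0.364, also 0.364 adjusted over 6 library measures). The share of counts taken by the top 50 genes averaged 34.7% ± 0.742 in females and 36.4% ± 0.765 in males (SD, n = 10 each; permutation test, p = 5e-05, adjusted p = 0.00015), and that of major urinary protein genes 0.821% ± 0.217 and 4.21% ± 1.72 (permutation test, p = 1e-05, the smallest these permutations can give, adjusted p = 6e-05). Y-linked counts matched every sex label. Hepatocyte markers (14 genes such as Alb, the gene of albumin) were detected in every group, with summed levels of 112990 to 132260 CPM (counts scaled to the size of the library) in females and 115370 to 136170 in males. The sexes separated on the first principal component of the 500 most variable genes (61.49% of their variance). On the second component (7.22%), male P04 at 32.58, female P59 at 21.31 and male P39 at -19.89 lay farthest out. P04 had the lowest major urinary protein level of the males and their highest summed markers of macrophages, stellate cells, endothelial cells and lymphocytes, while male P49 was second lowest in major urinary proteins. Some results that rest on P04, P49 or P59 are therefore also given without the mouse concerned. In bulk tissue, fewer cells of a type and less RNA per cell cannot be told apart.

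Between the sexes at 70% bean, 2161 of 12520 genes tested were higher in females and 2424 higher in males (edgeR quasi-likelihood test, Benjamini-Hochberg adjusted p under 0.05), which is 17.3% and 19.4% of the genes. Most of these genes differed by less than 2-fold, and the median log2 fold change (females over males) over all genes was 0.01. Differences of 2-fold or more were found for 310 genes in females (2.48%) and 214 in males (1.71%). In 245 genes (1.96%) every female lay above every male, and in 411 (3.28%) every male lay above every female. The split of calls depended on the scaling, since upper-quartile normalization gave 2689 genes higher in females and 1878 in males, and female calls made up 58.9% instead of 47.1% of the total. Without male P04 the 2-fold female genes numbered 481.

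The female programme was led by cytochromes of the Cyp3a and Cyp2c families and sulfotransferases of the Sult2a family, most of which were close to undetected in males. The gene with the highest log2 fold change was Cyp3a41a, a cytochrome P450 that oxidizes steroids and foreign compounds. Its level was 742 to 3044 CPM in females (median 2738) and 0.0341 to 0.492 CPM in males (median 0.151), with a log2 fold change of 13.55 ± 0.33 (SE; edgeR adjusted p = 2.1e-19). Female P59 was the low value and the next female was at 1939 CPM, so the groups did not come near each other. In what follows, a value with ± in parentheses is the log2 fold change of females over males with its SE, unless another quantity is named. The neighbours of Cyp3a41a, namely Cyp3a41b (12.09 ± 0.66), Cyp3a16 (10.29 ± 0.38) and Cyp3a44 (9.13 ± 0.35) on chr5:145436309-145805874 (GRCm38), shared this pattern, with P59 the lowest female for each. Other members of the family, Cyp3a11 and Cyp3a25, were higher in males. The promoters of Cyp3a41a (chr5:145720087-145720386, minus strand) and Cyp3a44 (chr5:145805825-145806124, minus strand) are shown because both genes are female-high and the windows are nearly alike. Sequences are from RefSeq (GRCm38.p6), run from 250 bases before to 50 bases after the transcription start, and have in capitals the 23 of 300 bases at which the pair differs (92.3% identical, compared without gaps). The Cyp3a41b window was 97.3% identical to that of Cyp3a41a, whereas those of Cyp3a16 and Cyp3a11 were 31.0% and 24.7% identical to it by the same ungapped count.
Cyp3a41a: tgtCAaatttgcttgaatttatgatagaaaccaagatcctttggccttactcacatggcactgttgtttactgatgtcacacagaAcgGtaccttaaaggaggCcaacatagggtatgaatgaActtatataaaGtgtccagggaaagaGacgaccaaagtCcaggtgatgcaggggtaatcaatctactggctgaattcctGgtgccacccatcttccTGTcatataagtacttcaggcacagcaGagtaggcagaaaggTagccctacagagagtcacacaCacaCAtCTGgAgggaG
Cyp3a44: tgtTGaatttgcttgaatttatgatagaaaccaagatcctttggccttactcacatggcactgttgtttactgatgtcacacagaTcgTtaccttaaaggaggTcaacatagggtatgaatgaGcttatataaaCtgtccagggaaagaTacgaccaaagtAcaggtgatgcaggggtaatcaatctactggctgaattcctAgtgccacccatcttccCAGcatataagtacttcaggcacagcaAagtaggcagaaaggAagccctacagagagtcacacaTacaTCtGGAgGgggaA

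Sulfotransferases, which make steroids and bile acids water-soluble by adding sulfate, gave the widest gaps after Cyp3a41a. Sult2a1 was at 133 to 262 CPM in females (median 199), whereas 8 of 10 males had no count and the highest male was at 0.0991 CPM (log2 fold change 13.20 ± 0.26, adjusted p = 2.5e-21, and 14.06 without male P29). No count of Sult2a3 or Sult2a5 was found in any male, so females were at least 3816-fold and at least 1728-fold higher, taking 3 counts over the male group as the floor. Sult2a3 ranged over 7.55 to 75.6 CPM in females, and Sult2a5 over 5.41 to 30.5 CPM. Sult2a2 (13.08 ± 0.26) had counts in 2 males, and without male P14 its log2 fold change was 14.72. Outside this cluster (chr7:13623967-14494230), Sult3a1, an amine sulfotransferase, was at 20.5 to 96.6 CPM in females and at 0 in 8 males (9.68 ± 0.46, and 11.39 without male P49). Of 13 sulfotransferases tested, 11 were higher in females and 1, Sult2a8, in males, against 17.3% and 19.4% of all genes.

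Of the flavin monooxygenases, which oxidize nitrogen and sulfur compounds, Fmo2 was higher in females (46.1 against 8.96 CPM by median, log2 fold change 2.29 ± 0.11), and Fmo5 was higher in males (356 against 705 CPM, -0.94 ± 0.07). A1bg, which encodes a secreted plasma protein, spread widely among females, from 188 to 1138 CPM (median 514), and stayed at or under 1.21 CPM in males (10.96 ± 0.48, and 11.79 without male P09). In contrast to the Cyp3a genes, A1bg was highest in female P59. Cyp2c40 was held within 521 to 622 CPM in females and was at most 1.12 CPM in males (10.16 ± 0.18). Cyp2c69 (10.51 ± 0.26) had a median of 944 CPM in females and 0.585 CPM in males. Both belong to a family that oxidizes arachidonic acid and drugs. Cyp2b13, a cytochrome of the family induced by phenobarbital, ranged from 127 to 303 CPM in females, but among males P49 (3.64 CPM) and P44 (1.42 CPM) had far more than the male median of 0.0606 CPM. Its log2 fold change was 8.75 ± 0.52, and 10.16 without P49.

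**Figure D1:**
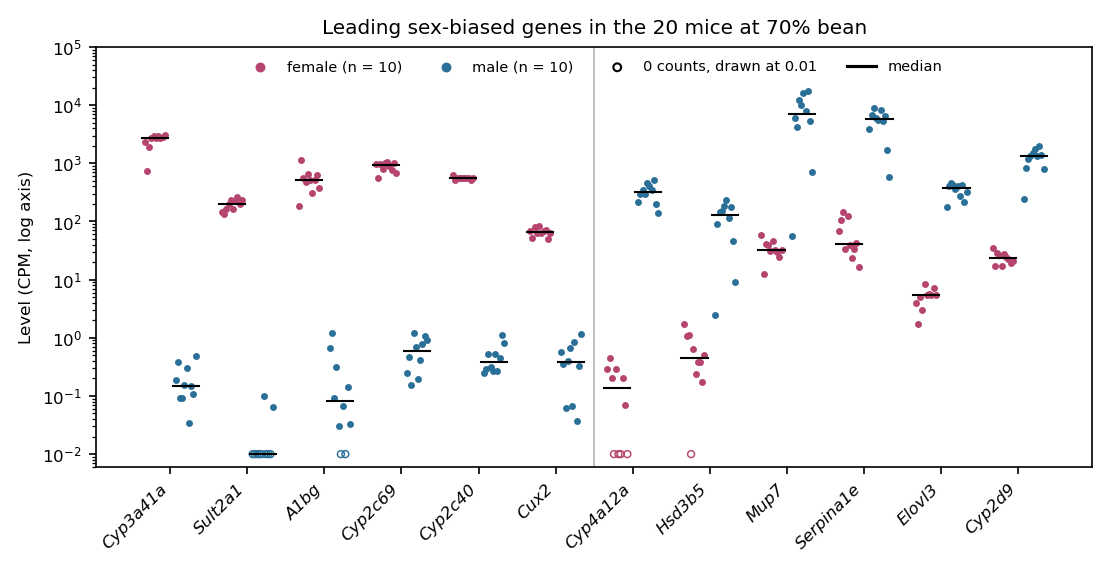
CPM of 12 leading genes in each mouse at 70% bean on a log axis (females and males, 10 each; horizontal line, median; open points, 0 counts drawn at 0.01 CPM). The 6 female-high genes are at 49.9 CPM or more in every female and at 1.22 CPM or less in every male, and of the 6 male-high genes only Mup7 has a male (P04, 57.0 CPM) within the female range.

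Of 58 classic female-biased liver genes tested, 48 were higher in females, 46 of them at least 2-fold, and 3 in males (median log2 fold change 2.41, against 0.01 over all genes). The shares of all genes were 17.3% higher in females and 19.4% higher in males. Slc22a26, an organic anion transporter, had a median of 151 CPM in females and 1.35 CPM in males, where P49 was highest at 4.56 CPM (6.52 ± 0.25). Acot3, a peroxisomal acyl-CoA thioesterase, had a median of 371 CPM in females and 30.7 CPM in males (3.36 ± 0.25). The 3 members higher in males were Rarres1, Apoa4 and Gsta4. Among the 7 members that passed no threshold was Cd36, the fatty acid transporter (0.21 ± 0.17, adjusted p = 0.35).

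The palindrome TTCNNNGAA, which STAT5 and BCL6 can both bind, was searched in the promoter windows on either strand. It was found in 27 of 219 genes at least 2-fold higher in females (12.3%), 15 of 166 at least 2-fold higher in males (9.04%) and 833 of 9813 genes tested (8.49%) that had a window, and in 8.3% of all 32851 windows. ATCGAT, the core shared by CUX2 and ONECUT1 sites, was found in 1.37%, 1.2% and 0.897% of the same genes and in 0.925% of all windows. These shares describe letters in the windows and were not tested. Stretches of 4 windows follow, with up to 50 bases of window on either side and TTCNNNGAA in capitals, 2 from female-high and 2 from male-high genes. They lie at chr15:60921296-60921404, minus strand (A1bg), chr10:33857563-33857671, plus strand (Sult3a1), chr4:104876568-104876648, minus strand (C8a), and chr19:12695567-12695741, plus strand (Keg1, with 2 matches, shown for its motif).
A1bg: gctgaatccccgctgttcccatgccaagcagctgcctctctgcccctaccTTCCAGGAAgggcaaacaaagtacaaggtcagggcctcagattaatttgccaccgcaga
Sult3a1: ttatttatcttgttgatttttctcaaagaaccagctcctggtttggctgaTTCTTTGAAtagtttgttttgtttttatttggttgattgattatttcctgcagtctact
C8a: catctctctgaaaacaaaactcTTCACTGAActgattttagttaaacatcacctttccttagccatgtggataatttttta
Keg1: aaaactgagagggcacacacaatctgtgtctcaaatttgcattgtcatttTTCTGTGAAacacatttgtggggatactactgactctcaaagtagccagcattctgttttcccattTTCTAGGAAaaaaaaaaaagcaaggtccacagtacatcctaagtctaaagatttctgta

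Among the regulators, Cux2 (chr5:121856366-122050102, minus strand) had the widest gap. It was at 49.9 to 83.5 CPM in females (median 66.2) and 0.0374 to 1.18 CPM in males (median 0.38), a log2 fold change of 7.18 ± 0.26 (adjusted p = 4.7e-16). Trim24, a co-regulator of nuclear receptors, was at 49.7 to 75.5 CPM in females and 11.1 to 19.6 CPM in males (1.99 ± 0.09). Tox, a DNA-binding factor of the HMG-box class, had a median of 17.4 CPM in females and 5.21 CPM in males (1.53 ± 0.16). Females did not overlap males for any of the 3. Receptors were found in both directions. Prlr, the prolactin receptor, had medians of 449 and 110 CPM (1.92 ± 0.09), Lepr, the leptin receptor, 8.83 and 1.95 CPM (2.32 ± 0.33), and Esr1, the oestrogen receptor, 45.4 and 22.9 CPM (0.98 ± 0.12), each without overlap. Ghr, the growth hormone receptor, was higher in males, at 369 to 520 CPM in females and 404 to 643 CPM in males (-0.32 ± 0.08, adjusted p = 0.002), as was the bile acid receptor Nr1h4 (-0.29 ± 0.08). Igfals, which stabilizes circulating IGF1 and is listed among classic male-biased genes, was higher in females (194 against 111 CPM, 0.76 ± 0.09), as was Igfbp2, another carrier of insulin-like growth factors (0.90 ± 0.15).

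Bcl6 (chr16:23965052-23988852, minus strand) was higher in males (log2 fold change -1.09 ± 0.38, adjusted p = 0.029), but its levels overlapped widely, at 5.76 to 38.6 CPM in females and 13.0 to 81.8 CPM in males. The call was lost without male P09 (adjusted p = 0.056) or without male P24 (adjusted p = 0.065). Bcl6 was singled out after its values were seen. Rora, a nuclear receptor of clock and lipid genes, was also higher in males (57.1 against 77.5 CPM, -0.45 ± 0.07). Stat5a, Stat5b, Jak2 and the hepatocyte factor Hnf4a passed no threshold. Of 43 regulators and growth hormone signalling genes tested, 19 were higher in females, 7 in males and 17 passed no threshold. Without male P24, the 7 fell to 4. Among all genes, 17.3% were higher in females and 19.4% in males.

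In males, the gene with the widest gap was Cyp4a12a (chr4:115299046-115332815, plus strand), which hydroxylates arachidonic acid. It was at 139 to 522 CPM in males (median 321) and 0 to 0.446 CPM in females (log2 fold change -10.98 ± 0.38, adjusted p = 2.5e-16). Cyp4a12b showed the same (-9.48 ± 0.54, and -10.94 without female P59). Hsd3b5, a 3-ketosteroid reductase of male liver (chr3:98618634-98630252, minus strand), was more uneven, at 2.46 to 231 CPM in males (median 129) and 0 to 1.72 CPM in females (-7.50 ± 0.69). Males P04 (2.46 CPM) and P49 (9.15 CPM) made its low end. Cyp2d9, a steroid hydroxylase, ranged from 242 CPM in P04 to 1984 CPM in males and from 16.9 to 35.1 CPM in females (-5.68 ± 0.28). Elovl3, an elongase of saturated and monounsaturated fatty acids, was at 176 to 456 CPM in males and 1.73 to 8.27 CPM in females (-6.07 ± 0.24). Serpina1e, an antitrypsin gene, ran from 586 CPM (P49) to 8978 CPM in males and from 16.4 to 143 CPM in females (-6.41 ± 0.51).

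Single transporter, acetyltransferase and complement genes were also among the most male-high. Of 21 organic anion and cation transporters tested, however, 6 were higher in females and 4 in males, the latter near the share of all genes. Counts in this paragraph stand beside 17.3% of all genes higher in females and 19.4% in males. Slc22a28 was at 7.33 to 18.9 CPM in males and at most 0.349 CPM in females (-6.12 ± 0.23), although it lies between the female-high transporters Slc22a26, Slc22a27 and Slc22a29 on chr19:7557459-8218900. Nat8f5 and Nat8, N-acetyltransferase genes, had log2 fold changes of -8.39 ± 0.40 (-9.04 without female P97) and -5.81 ± 0.31. C6 and C8a, both parts of the membrane attack complex of complement, had medians of 219 and 783 CPM in males and 15.2 and 163 CPM in females (-3.60 ± 0.23 and -2.14 ± 0.18). Gstp1, a glutathione S-transferase, was at 564 to 1818 CPM in males and 148 to 318 CPM in females (-2.83 ± 0.17), with female P59 the high one. Keg1, a glycine N-acyltransferase-like gene, had medians of 148 and 49.6 CPM (-1.49 ± 0.11). Of 39 classic male-biased genes tested, 32 were higher in males, 29 of them at least 2-fold, and 2 in females (median -1.82).

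Cfd, the gene of complement factor D, had the widest gap after Cyp4a12a (-9.66 ± 0.72, and -10.49 without female P74). Males ran from 0.378 CPM (P04) to 51.2 CPM (median 24.1), and 7 of 10 females had no count. Cfd is best known from fat tissue, and its promoter (chr10:79890603-79890902, plus strand, no capitals) is shown because, of the male-high genes with a window in the table, it had the widest gap.
Cfd: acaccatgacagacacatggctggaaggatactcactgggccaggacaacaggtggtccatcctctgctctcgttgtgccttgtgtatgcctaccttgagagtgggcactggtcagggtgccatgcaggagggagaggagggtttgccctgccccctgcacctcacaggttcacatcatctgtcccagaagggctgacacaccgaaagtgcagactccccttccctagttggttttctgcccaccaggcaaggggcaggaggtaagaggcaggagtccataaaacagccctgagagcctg
Of 8 adipocyte markers, 4 were expressed enough to be tested, and 3 of them (Cfd, Cidec and Car3) were higher in males. The other 4 (Adipoq, Plin1, Retn and Lep) were too low to be tested, with Plin1 and Retn at 0 in every female and Lep at 0 in every male. The summed level of the 8 was 3550 to 4351 CPM in females and 2951 to 8680 CPM in males. Nearly all of it came from Car3 (2028 to 3534 CPM in females, 1865 to 7463 CPM in males) and Pck1. Cfd and Cidec reached at most 51.2 and 51.0 CPM in any mouse, so the sum says little about them. The part of adipocyte RNA in the Cfd difference was not tested.

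Major urinary protein genes fell in one block on chr4:60066469-62150863, where 18 genes were at least 2-fold higher in males. Of 21 tested, 18 were higher in males, 1 in females (Mup5, not called without P89 or P97) and 2 passed no threshold (median log2 fold change -3.17). The shares of all genes were 19.4% higher in males and 17.3% higher in females. Mup7 ranged from 57.0 to 17630 CPM in males (median 6929) and from 12.4 to 57.5 CPM in females (-7.85 ± 0.70). Its lowest male, P04, lay inside the female range and P49 was at 708 CPM, whereas all other males were far above. Mup20, or darcin, the protein by which females recognize male urine, was at 1811 to 9816 CPM in males and 21.5 to 352 CPM in females (-6.68 ± 0.58). Female P59 alone gave the 352 CPM, the next female being at 39.8 CPM, and without P59 the log2 fold change was -7.71. Mup3 was abundant in both sexes, with medians of 1793 and 7448 CPM (-1.92 ± 0.21). Many members of this block are nearly identical, and no source used here gives how the authors' program divided shared reads, so values of single Mup genes are uncertain. The same holds for Cyp2c, Cyp2b, Cyp3a41a and Cyp3a41b, Cyp4a12a and Cyp4a12b, Sult2a, Serpina1 and Gstp.

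The summed Mup level differed between males widely, from 14258 CPM in P04 and 22261 CPM in P49 to 79108 CPM in P29. Other male-high genes followed it among the 10 males. On log2 scales (0.1 CPM added), Hsd3b5 had a Pearson r of 0.97 (permutation test over 6 relations, adjusted p = 0.00018) and a Spearman rho of 0.94 (adjusted p = 0.00144), and r was 0.81 without P04 and P49. For Cyp2d9, r was 0.93 (adjusted p = 0.00054) and rho 0.87 (adjusted p = 0.00597), with 0.81 after leaving out both mice. Cyp4a12a gave 0.79 (adjusted p = 0.014) and 0.81 (adjusted p = 0.0147), and 0.73 without them. The relation was weaker for Elovl3 (r = 0.70, adjusted p = 0.0388; rho = 0.61, adjusted p = 0.0796), with 0.46 without the 2 males, on which it rests. Serpina1e (r = 0.58, adjusted p = 0.0938; rho = 0.54, adjusted p = 0.115; 0.44 without them) passed neither test. Cyp2b13, a female-high gene, ran the other way (rho = -0.74, adjusted p = 0.0289), but its r of -0.46 did not pass (adjusted p = 0.161; -0.58 without them). All values of a mouse come from 1 library, and no label gives the time of collection or any state of these males.

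**Figure D2:**
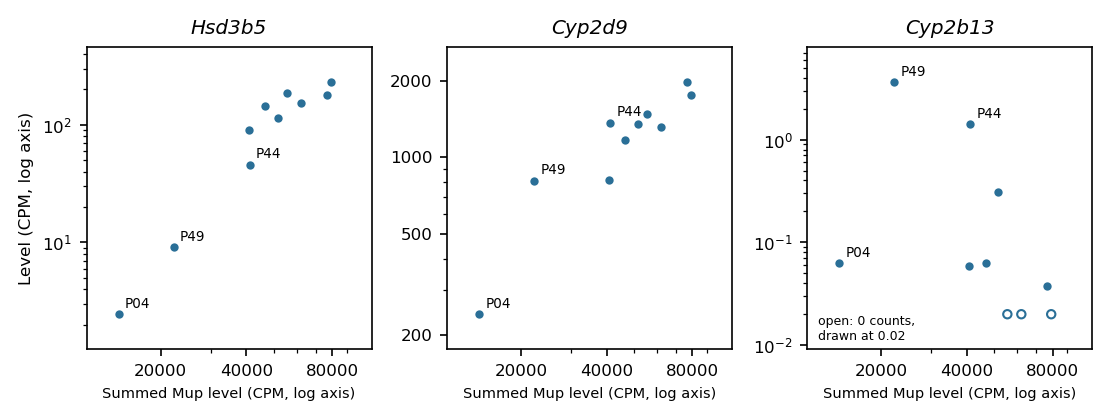
Summed Mup level (x axis, CPM, log scale) against Hsd3b5, Cyp2d9 and Cyp2b13 (y axes, CPM, log scale) in the 10 males at 70% bean (open points, 0 counts drawn at 0.02 CPM). P04 and P49, at 14258 and 22261 CPM on the x axis, have the lowest Hsd3b5, and P49 has the highest Cyp2b13 at 3.64 CPM.

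Some of the genes sat together in the genome. Of 524 genes that differed at least 2-fold, 80 fell into 14 clusters of 4 or more with gaps of at most 500 kb, and the other 444 lay outside such clusters. The same share over all genes tested is not given here, so 80 of 524 cannot be read as an excess. The Mup, Cyp3a, Sult2a, Cyp2b and Cyp2a (chr7:25897620-26939384, 7 genes) and Cyp2c (chr19:39510862-40187333, 6 genes) clusters each held 2-fold genes of one direction. So did a Gsta cluster with its neighbour Gclc on chr9:77754535-78355788, whose 4 genes were male-high. Genes with smaller differences did not enter the clusters, and some members of these families went the other way. Cyp2c67 (log2 fold change -0.70) and Sult2a8 (-0.78) were higher in males, and Mup5 (0.66) in females. The serpin region on chr12:102948859-104346144 held 4 female-high and 3 male-high genes, among them Serpina6, the corticosteroid carrier (678 against 287 CPM, 1.41 ± 0.12), and Serpina1e in the opposite direction. The Rdh cluster on chr10:127776386-128007611 held 3 and 1.

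Enzyme families held members higher in either sex. List counts at 70% bean, here and in the paragraphs that follow, stand beside 17.3% of all genes higher in females and 19.4% in males. Of 47 cytochromes of families Cyp1 to Cyp3, 20 were higher in females (17 at least 2-fold) and 11 in males (3 at least 2-fold). Their electron donor Por was at 497 to 781 CPM in females and 206 to 387 CPM in males (1.23 ± 0.11). The 15 Cyp4 genes gave 4 and 6, and the 5 flavin monooxygenases 4 and 1. In contrast, 10 of 21 glutathione S-transferases were higher in males and 4 in females (median -0.39), as were 7 of 13 carboxylesterases against 3 (median -0.55) and 9 of 17 UDP-glucuronosyltransferases against 4 (median -0.28). Among carboxylesterases, Ces3a, a triacylglycerol hydrolase, had medians of 952 CPM in females and 2144 CPM in males (-1.17 ± 0.12). Of 15 clade A serpins, 6 were higher in females and 5 in males, and the 21 organic anion and cation transporters gave 6 and 4. The 4 female-high glutathione S-transferases and the 4 male-high transporters, each of 21, were near the shares of all genes.

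**Figure D3:**
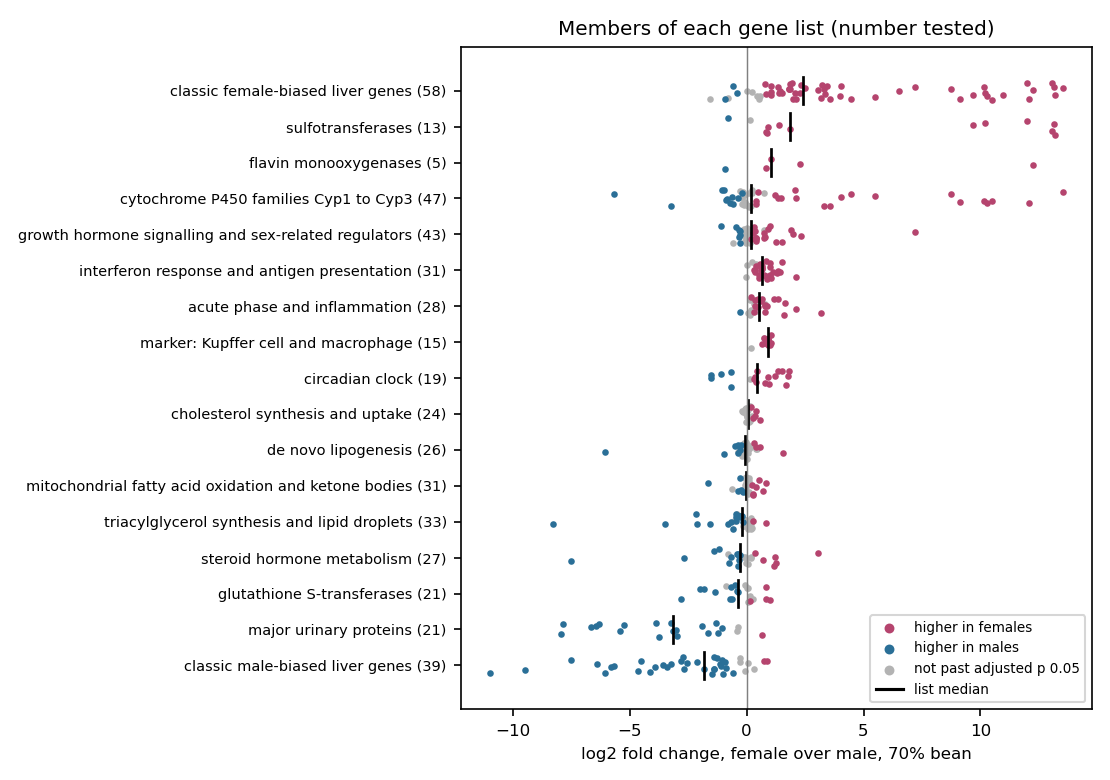
Log2 fold change (females over males at 70% bean, x axis) of each tested member of 17 gene lists, with the list median as a black line. Sulfotransferases (median 1.85), classic female-biased genes (2.41) and macrophage markers (0.90) lie to the right of 0 and Mup genes (-3.17) and classic male-biased genes (-1.82) to the left.

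Steroid and bile acid enzymes leaned to males. Of 27 steroid genes, 13 were higher in males and 6 in females (median -0.28). Of 36 bile acid synthesis and transport genes, 16 were higher in males and 9 in females (median -0.11), with 5 and 4 at least 2-fold. At 0% bean the bile acid list gave 13 and 12 (median 0.13), against 13.6% and 12.5% of all genes. The 2 lists share members such as Cyp7b1, so their counts are not separate. Among all genes, 19.4% were higher in males and 17.3% in females. Cyp7b1, the oxysterol hydroxylase of the acidic bile acid pathway, had medians of 127 CPM in males and 18.8 CPM in females (-2.69 ± 0.22). Srd5a1, the steroid 5-alpha-reductase, was at 75.8 to 119 CPM in males and 28.2 to 47.5 CPM in females (-1.40 ± 0.10). Scp2, the sterol carrier protein that also serves peroxisomal oxidation, was at 3734 to 4928 CPM in males and 1636 to 2470 CPM in females (-1.12 ± 0.06). Cyp7a1, the first enzyme of the classical bile acid pathway, passed no threshold. Slco1a4, a basolateral organic anion and bile acid carrier, went to the female side (117 against 30.9 CPM, 1.86 ± 0.15).

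The lipid droplet genes gave the clearest male side of lipid metabolism. Of 33 triacylglycerol synthesis and droplet genes, 16 were higher in males, 5 of them at least 2-fold, and 2 in females (median -0.22), with 1 female call without P09, P34 or P89 and 4 without P04 or P79. The male lean was not particular to this diet. At 0% bean 21 were higher in males and 2 in females (median -0.28), against 13.6% and 12.5% of all genes. By the paper, liver lipid content itself no longer differed between the sexes at 70% bean. Cidea, a protein that enlarges lipid droplets, was at 0.472 to 13.4 CPM in males and had no count in 7 females (-8.29 ± 0.78). Cidec, of the same family, ranged from 12.0 to 51.0 CPM in males, with P04 highest, and from 0.32 to 4.17 CPM in females (-3.50 ± 0.32). Fitm1, which helps droplets to form, had medians of 56.0 and 13.8 CPM (-2.16 ± 0.20). Plin2, the main coat protein of hepatocyte droplets, overlapped (577 CPM in females, 635 CPM in males by median; -0.15 ± 0.08, adjusted p = 0.14). Pparg was lower in females (14.6 against 21.5 CPM, -0.46 ± 0.09, adjusted p = 0.00053), but its most abundant transcript, in a fit per transcript, gave 0.32 (adjusted p = 0.042).

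De novo lipogenesis did not separate the sexes as a group, with 4 of 26 genes higher in females and 7 in males (median -0.06). Fasn, the fatty acid synthase, had medians of 1649 CPM in females and 1705 CPM in males (-0.09 ± 0.14, adjusted p = 0.66). Scd1, the stearoyl-CoA desaturase, had medians of 8471 and 10480 CPM (-0.38 ± 0.19, adjusted p = 0.11, and -0.52 with adjusted p = 0.020 without female P89). For Srebf1, the regulator of lipogenesis, the medians were 491 and 404 CPM (0.20 ± 0.09, adjusted p = 0.090, and 0.24 with adjusted p = 0.030 without female P84 and 0.041 without male P49). Pnpla3, a lipase of droplets that SREBF1 activates, was higher in females (5.67 against 1.36 CPM, 1.55 ± 0.33). Among 27 genes of fatty acid uptake, binding and activation, 5 were higher in females and 8 in males. Fabp5, a fatty acid binding protein, was at 22.3 to 62.4 CPM in females and 3.57 to 13.5 CPM in males (2.49 ± 0.22), and Fabp4 differed little (6.17 against 7.82 CPM, -0.38 ± 0.14, adjusted p = 0.038, a call lost on leaving out any of 11 mice, which gave adjusted p of 0.051 to 0.075).

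Of 31 mitochondrial oxidation genes, 7 were higher in females and 5 in males, shares near the 17.3% and 19.4% of all genes, and of 30 peroxisomal and microsomal genes 10 and 9. Cpt1a, the carnitine shuttle enzyme that limits entry of fatty acids into mitochondria, had medians of 438 CPM in females and 367 CPM in males (0.25 ± 0.06, adjusted p = 0.0033). Ppara, the nuclear receptor that drives oxidation genes, had 126 and 93.4 CPM (0.42 ± 0.10), with female P59 below every male at 70.7 CPM. Of 24 cholesterol genes, 5 were higher in females and 0 in males by edgeR (0 at an unadjusted p under 0.05, 0 by DESeq2 and 1 by limma-voom), including Srebf2, the transcription factor of sterol synthesis (0.40 ± 0.07). Apolipoproteins (5 and 7 of 25) and glucose metabolism (5 and 4 of 25) were balanced in number.

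Interferon and antigen presentation genes were higher in females as a group. Of 31 tested, 27 were higher in females, 10 of them at least 2-fold, and 0 in males by edgeR (also 0 at an unadjusted p under 0.05, by DESeq2 and by limma-voom; median 0.64). At 0% bean 14 were, with a median of 0.25, against backgrounds of 12.5% of genes higher in females and 13.6% higher in males on that diet. Gbp3, a guanylate-binding GTPase, was at 17.8 to 41.1 CPM in females and 4.06 to 9.73 CPM in males (2.13 ± 0.16). Its neighbours Gbp7 (33.9 against 12.8 CPM, 1.51 ± 0.13) and Gbp2 (13.2 against 4.59 CPM, 1.44 ± 0.16) did not overlap between the sexes either. Irf1, a transcription factor induced by interferon, had a smaller but equally complete gap (47.2 against 33.4 CPM, 0.53 ± 0.06). Of 28 acute phase and inflammation genes, 18 were higher in females and 1, Hp, in males (median 0.52). The acute phase genes Orm2 and Orm3 had log2 fold changes of 2.11 ± 0.35 and 3.18 ± 0.56, and Il1rn, the antagonist of the interleukin-1 receptor, was at 3.69 to 9.39 CPM in females and 1.09 to 5.57 CPM in males (1.65 ± 0.25), with male P04 highest. Of 43 complement and coagulation genes, 16 were higher in females, none of them by 2-fold, and 9 in males, 5 of them by 2-fold or more. Immediate early and heat shock genes gave 1 and 5 of 20 and cell cycle genes 5 and 2 of 23, and the female counts ran from 1 to 3 and from 3 to 8 on leaving out single mice, with the highest without P04.

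Markers of macrophages were mostly higher in females. A smaller share of the markers of other non-parenchymal cells was called, all but Sox9 higher in females. These counts stand beside 17.3% of all genes higher in females and 19.4% in males. Of 15 macrophage and Kupffer cell markers, 13 were higher in females and 0 in males by edgeR (median 0.90), and their summed level was 612 to 1348 CPM in females (median 844) and 352 to 812 CPM in males (median 491), with no marker at 0. Clec4f, a lectin of Kupffer cells, was at 83.7 to 154 CPM in females and 39.8 to 83.6 CPM in males (0.90 ± 0.15), while Folr2 (1.06 ± 0.17), C1qa (0.85 ± 0.12) and C1qc (0.90 ± 0.16) overlapped. Male P04 was the highest male for C1qa (65.5 CPM, next 49.4 CPM). Stellate cell markers gave 6 of 14 higher in females and 0 in males, and 11 without P04, with sums of 690.03 to 874 CPM in females and 475 to 828 CPM in males. Lrat, which stores retinol as its ester in stellate cells, had medians of 27.7 and 16.4 CPM (0.63 ± 0.14). Endothelial markers gave 4 of 15 and 0, with 9 female calls without P04 and 2 without P14, P49 or P84, with sums of 428 to 739 and 359 to 734 CPM. Stab2, a scavenger receptor of sinusoids, was at 62.1 and 35.6 CPM by median (0.74 ± 0.14). Cholangiocyte markers gave 4 of 8 higher in females (2 without P09, P79 or P84) and 1 in males, the transcription factor Sox9 (-0.89 ± 0.16). Lymphocyte markers gave 2 and 0 of 11, a female share near that of all genes (1 to 4 female calls on leaving out single mice), and neutrophil markers 1 and 0 of 3 tested of 10 (0 to 2), and the lymphocyte sum did not exceed 21.7 CPM in any mouse. The number of macrophage, stellate, endothelial and neutrophil markers higher in males was also 0 at an unadjusted p under 0.05, by DESeq2 and by limma-voom, and for lymphocyte markers it was 1 by each of these. Of the pancreatic acinar markers, 9 of 12 were at 0 in each sex and 1, the elastase Cela1, could be tested and was higher in males (-0.84 ± 0.21, adjusted p = 0.0028). The part of macrophages and other cells in the interferon and acute phase differences was not tested.

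Clock genes differed at 70% bean. Of 19, 13 were higher in females and 5 in males (Arntl, Npas2, Nfil3, Clock and Cry1), and 1 passed no threshold, while at 0% bean 3 were called, each higher in females (12.5% of all genes on that diet). Dbp, an output factor of the clock, was at 88.6 to 208 CPM in females and 17.2 to 109 CPM in males (1.68 ± 0.25). Per3, a repressor of the clock, had 29.8 and 7.7 CPM by median without overlap (1.81 ± 0.18), and Nfil3, which opposes Dbp at its sites, had 17.8 and 34.6 CPM (-1.08 ± 0.14), also without overlap. For none of these 3 did the sex difference at 70% bean differ from that at 0% past the threshold (adjusted p = 0.091, 0.14 and 0.078). It did for 1 of the 19, Bhlhe41, a repressor of the clock (interaction 2.00 ± 0.59, adjusted p = 0.049), whose call was lost under 8 alternatives, among them without P49 (0.054) or P69 (0.0596). No source used here gives the time of liver collection relative to the light cycle, and its part in these differences was not tested.

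The same comparison in the other mice of the series set these programmes beside those on the other diets. At 0% bean 1581 genes were higher in females and 1719 in males, and at 35% bean 1893 (15.1%) and 1948 (15.5%). Of 12435 genes tested at both 70% and 0%, 2207 were called in both, which is 48.3% of the 70% calls and 67.4% of the 0% calls, and 2185 of these had the same direction. With 35%, the 2729 shared calls were 59.7% and 71.5%, and 2726 had the same direction. The classic lists gave 49 female calls of the female-biased genes and 28 male calls of the male-biased genes at 0% bean, against 48 and 32 at 70%. Mup genes gave 17 male calls with a median of -1.50 at 0% bean. The summed Mup level in males was 11138 to 44404 CPM at 0% (median 16130) and 14258 to 79108 CPM at 70% (median 49104), so the diets overlapped, and in females it was 3039 to 7522 and 4677 to 13609 CPM.

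Whether the female-to-male ratio itself depended on bean was asked with an interaction term fitted to the 60 mice. The ratio was higher at 70% than at 0% bean for 152 of 13317 genes (1.14%) and lower for 234 (1.76%), so 39.4% of these calls were higher. Upper-quartile normalization gave 162 and 127 (56.1%). Leaving out male P04 raised both counts, with 403 ratios higher and 427 lower. By list, the ratio was higher at 70% for 9 of 58 classic female-biased genes, 5 of 31 interferon genes, 4 of 47 cytochromes of families Cyp1 to Cyp3, 4 of 31 mitochondrial oxidation genes and 3 of 23 cell cycle genes, and lower for 3 of 39 classic male-biased genes. In all other cases a list held at most 2 such genes in a direction, as for 2 of 21 Mup genes, 2 of 17 UDP-glucuronosyltransferases and 2 of 21 transporters that were lower. Both directions include genes whose sex gap widened and genes whose gap narrowed, and 264 of the 386 had a gap that was larger at 70% bean, while 114 had a smaller one.

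**Figure D4:**
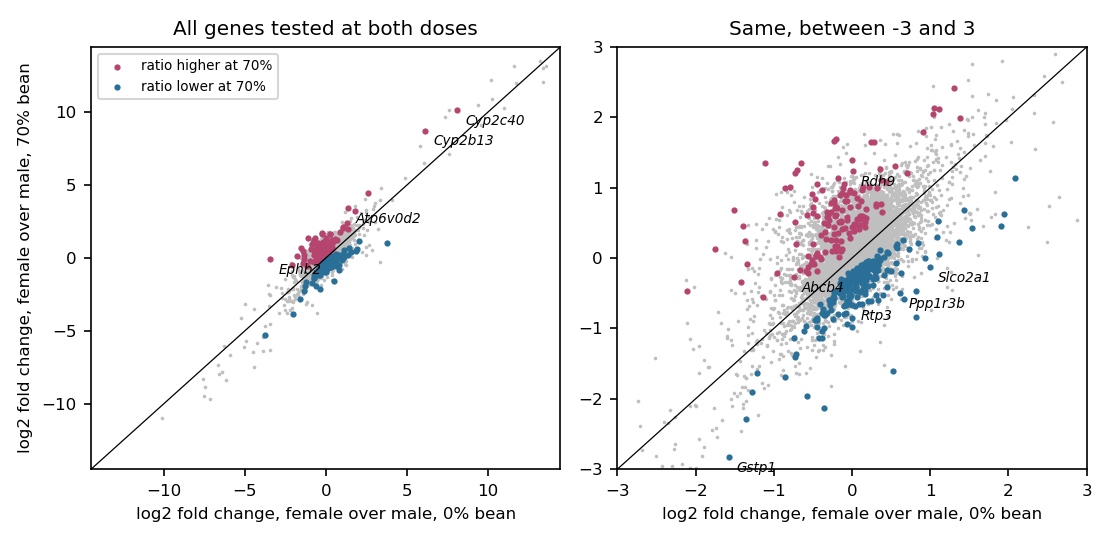
Log2 fold change (females over males) at 0% bean (x axis) against 70% bean (y axis) for all genes tested in both, with the full range at left and -3 to 3 at right. Coloured points are the genes whose ratio differed between the diets (of 152 higher and 234 lower at 70% bean).

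Of the female-high genes whose gap widened, one with a small interaction p was Atp6v0d2, a subunit of the vacuolar proton pump (chr4:19876841-19922605, minus strand). It averaged 7.58 ± 2.14 CPM in females and 2.97 ± 0.903 CPM in males at 0% bean, and 15.7 ± 3.77 and 1.45 ± 0.574 CPM at 70% (SD, n = 10 each). It rose in females (log2 change 1.05 ± 0.20) and fell in males (-1.04 ± 0.23), and the interaction was 2.09 ± 0.31 (adjusted p = 7.6e-05). Rdh9, a retinol and steroid dehydrogenase, did not differ between the sexes at 0% (95.8 ± 17.2 and 95.4 ± 22.7 CPM) and did at 70% (176 ± 47.5 and 75.0 ± 13.6 CPM, interaction 1.23 ± 0.20, adjusted p = 0.00028). Trim24 (interaction 0.60 ± 0.13) and Gbp3 (interaction 1.08 ± 0.21) had the same direction of interaction, as did Ucp2, a mitochondrial carrier (interaction 0.97 ± 0.19), Maff, a small Maf factor (interaction 1.31 ± 0.25), and Wee1, a kinase that restrains mitosis (interaction 1.50 ± 0.30). Cyp2b13 rose in females from 102 ± 24.0 to 241 ± 52.2 CPM (interaction 2.63 ± 0.68, adjusted p = 0.024, and 4.05 without P49), but the call was lost with DESeq2 (adjusted p = 0.0747) and per transcript (adjusted p = 0.1).

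Among male-high genes, the gap of Gstp1 widened through males, which went from 591 ± 122 CPM at 0% to 1304 ± 358 CPM at 70% bean (log2 change 1.14 ± 0.18), while females had 197 ± 33.1 and 183 ± 48.4 CPM (-0.11 ± 0.18, adjusted p = 0.79). The interaction was -1.25 ± 0.26 (adjusted p = 0.0037). Mup21 (interaction -1.54 ± 0.39) and Srd5a1 (interaction -0.68 ± 0.15) moved likewise. Rtp3, a receptor-transporting protein, had equal levels at 0% (56.9 ± 4.30 and 56.9 ± 7.84 CPM) and became male-high at 70% (47.3 ± 4.00 and 75.5 ± 5.04 CPM, interaction -0.67 ± 0.10, adjusted p = 7.9e-05). Ppp1r3b, the subunit that directs protein phosphatase to glycogen, changed sides, from 288 ± 76.9 CPM in females and 188 ± 46.4 CPM in males at 0% to 204 ± 30.0 and 290.3 ± 51.1 CPM at 70% (interaction -1.12 ± 0.21, adjusted p = 0.0012). Ces2a, a carboxylesterase, and Abhd5, the co-activator of the main droplet lipase, were called higher in males at 70% (-0.65 ± 0.12 and -0.29 ± 0.06), with interactions of -0.78 ± 0.19 and -0.58 ± 0.11.

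For other genes, a sex difference at 0% bean was no longer seen, was narrower or was reversed at 70%. Ephb2, a receptor tyrosine kinase (chr4:136647539-136835988, minus strand), averaged 9.26 ± 3.92 CPM in males and 0.844 ± 0.423 CPM in females at 0%, and 0.702 ± 0.567 and 0.663 ± 0.275 CPM at 70% bean, where male P04 was highest at 2.14 CPM. It fell in males by 3.70 ± 0.42 on the log2 scale, and the interaction was 3.36 ± 0.59 (adjusted p = 0.00073). Slco2a1, a prostaglandin carrier, rose in males from 48.6 ± 14.6 to 121 ± 24.8 CPM and reached the female level (96.3 ± 9.84 and 110 ± 14.6 CPM, interaction -1.12 ± 0.21). Abcb4, the phospholipid exporter of bile, was male-high on both diets, but the gap narrowed, from 237 ± 28.1 CPM in females and 398 ± 31.4 CPM in males to 299.8 ± 32.2 and 364 ± 24.3 CPM (interaction 0.47 ± 0.08, adjusted p = 0.00028). Cpt1a turned from male-high at 0% (-0.27 ± 0.09) to female-high at 70% (0.25 ± 0.06), with an interaction of 0.52 ± 0.12 (adjusted p = 0.011). Mitochondrial oxidation genes gave 1 female and 14 male calls at 0% bean against 7 and 5 at 70%, and for 4 of the 31 the interaction passed the threshold.

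**Figure D5:**
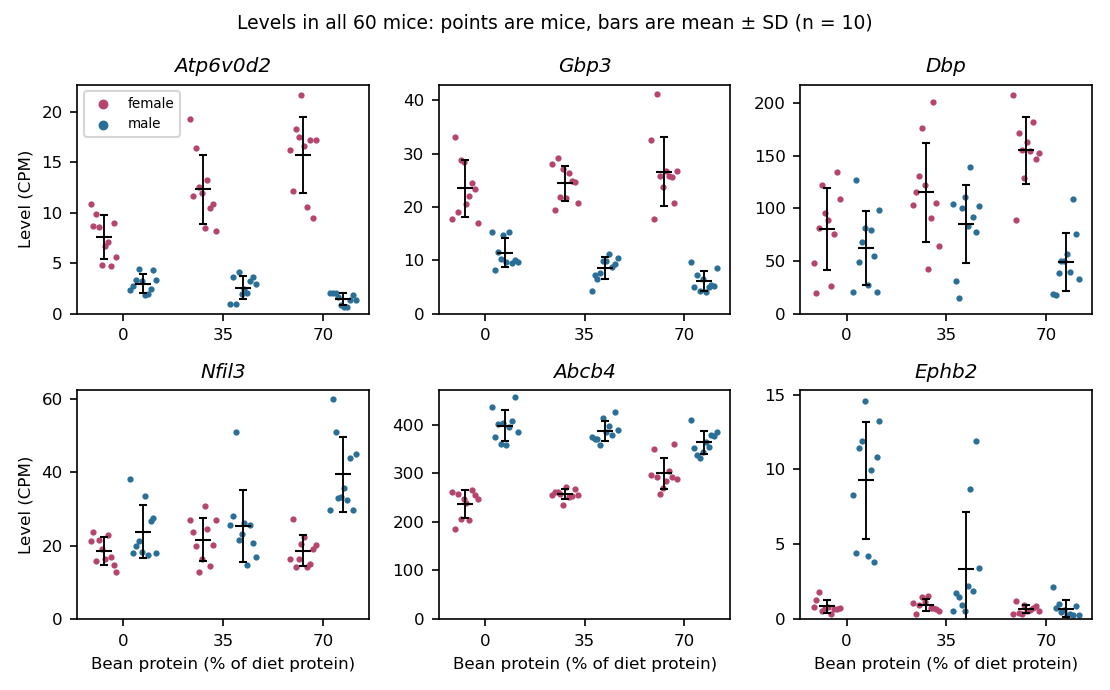
CPM of Atp6v0d2, Gbp3, Dbp, Nfil3, Abcb4 and Ephb2 in each of the 60 mice by diet (0%, 35% and 70% of protein from bean, x axis) and sex, with mean ± SD (n = 10 per group). Male Ephb2 averages 9.26 CPM at 0% and 0.702 CPM at 70% bean, and female Atp6v0d2 7.58 and 15.7 CPM.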

How the data were processed

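Liver RNA was sequenced by the authors (paired-end mRNA libraries) from 60 mice, trimmed, mapped to GRCm38 and counted per Ensembl transcript in CLC Genomics Workbench. What the authors deposited are raw counts, without normalization or filter. No source used here gives the strand setting or the division of shared reads. Every column was matched to its sample by title, and each single-library file was identical to its column.

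Counts of 65985 of 66624 transcripts were summed per gene by GENCODE vM21 names, and the 639 unnamed transcripts (0.275% of counts) were left out, as were genes off the autosomes. Genes passing filterByExpr (minimum count 10, minimum total 15) received TMM factors and entered quasi-likelihood tests of edgeR 4.0.16 (R 4.3.3), in the 20 mice of a diet for the sexes and in all 60 for interactions and diet changes. Standard errors were computed as |log2 fold change|/sqrt(F), and the threshold is a Benjamini-Hochberg adjusted p of 0.05. Levels are CPM with TMM factors of all 60 mice. Single measures were compared with 100000 two-sided permutations in NumPy 2.4.6. The shallowest library at 70% bean held about 26241000 counts, so the spread between animals (common biological coefficient of variation 20.0%), not depth, limits the precision for abundant genes. Where genes were at 0 the floor was 3 counts over a group, which covers counting error only. The labels do not give cage, litter or batch.

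The genes and lists were chosen with earlier results of these data known. Named are the 15 genes of largest change in each direction at 10 CPM or more, per list the 4 members of smallest p (10 for regulators, Mup and classic genes), up to 10 genes in each direction with the smallest interaction p, and lipid genes of the study. Of these, those that show the programmes are described, and a few are not reported here. Bcl6, Keg1, Ghr, Nr1h4, Sox9, Cela1, Bhlhe41 and members given by name alone were chosen after their values were seen. The alternatives were DESeq2 1.42.0, limma-voom (limma 3.58.1), RLE or upper-quartile factors, no filter or a filter at 1 CPM, transcripts in place of genes, all chromosomes, library sizes without Mup genes, fits of other sets of groups, and leaving out each mouse. Fits without P04, P49 and P59 together, or without P49, were chosen after seeing the data. The fits were tested on simulated data with known changes.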

Additional observations from a re-analysis of the deposited data

Results flagged for a closer look

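In each group of 10 mice at 70% bean, the gap of the highest or lowest mouse to its neighbour was divided by the group's range, and shares above Dixon's critical value are given here for the genes described and the library measures. For normally distributed values, chance gives such a gap in about 1 of 20 groups, and 30 of 226 groups had one. The levels were CPM, and some groups were mostly at 0, such as Sult2a2 in males (8 of 10 mice). That rate does not hold for such groups, so the count cannot be read as an excess. The genes were chosen for large or low values in one sex, and their values in a mouse come from 1 library, so these gaps are not independent.

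Female P59 accounted for 8 of these gaps. It was lowest of the females for Cyp3a41a 0.520, Cyp3a16 0.476, Ppara 0.571, given as the share of the range, and highest for A1bg 0.495, Cyp4a12b 0.559, Mup20 0.945, C6 0.522, Gstp1 0.793. Its Mup20 level was 352 CPM and the next female was at 39.8 CPM, its Gstp1 level 318 CPM with the next at 183 CPM, and its Ppara level 70.7 CPM with the next at 115.5 CPM.

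Male P04 was highest of the males for Cidec 0.535, Cpt1a 0.479, Gbp2 0.488, Il1rn 0.678, C1qa 0.545, C1qc 0.493, Ephb2 0.609, and lowest for Nr1h4 0.533. Male P49 was highest for Sult3a1 0.569, Cyp2b13 0.611, Slc22a26 0.539. P04 had an Il1rn level of 5.57 CPM and the next male was at 2.53 CPM.

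Single gaps in other mice were Sult2a2 0.710 (P14 highest), Cyp2c40 0.623 (P54 highest), Cfd 0.508 (P74 highest), Cyp2u1 0.503 (P69 highest), Scp2 0.555 (P93 highest), Abhd5 0.537 (P74 highest), Gbp2 0.482 (P64 highest), Orm2 0.476 (P34 highest), Clock 0.467 (P39 lowest), Rtp3 0.510 (P74 highest). Male P19 had the lowest total count (26241000, share 0.478). The cause of these gaps was not tested.

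The female-to-male ratio differed between 70% and 0% bean (interaction over 60 mice, edgeR, adjusted p under 0.05) for 25 of the genes described. The log2 difference was positive for Cyp2c40 2.03, Cyp2b13 2.63, Slc22a27 1.40, Atp6v0d2 2.09, Wee1 1.50, Trim24 0.60, Cpt1a 0.52, Gbp3 1.08, Il1rn 1.41, Rdh9 1.23, Ucp2 0.97, Maff 1.31, Bhlhe41 2.00, Ephb2 3.36, Abcb4 0.47. It was negative for Mup21 -1.54, Mup11 -1.83, Gstp1 -1.25, Srd5a1 -0.68, Ces2a -0.78, Abhd5 -0.58, Rtp3 -0.67, Ppp1r3b -1.12, Slco2a1 -1.12, Atp8b1 -0.61. The adjusted p was nearest to the threshold for Bhlhe41 (0.049), Mup11 (0.048) and Cyp2c40 (0.033) and smallest for Atp6v0d2 (7.6e-05) and Rtp3 (7.9e-05).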

How the results depend on the processing

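Of 108 genes whose sex difference at 70% bean is described, 97 kept their direction and their side of the threshold under every alternative run. Direction reversed for Pparg per transcript (0.32) and for Ephb2, which was not called, with limma-voom (0.13), without P04 (0.29, and -0.22 to 0.29 over the mice left out in turn) and without P04, P49 and P59 (0.065). Fabp4 and Bcl6 lost their calls on leaving out single mice, and per transcript Abhd5 (adjusted p = 0.099), Il1rn (0.164), Stab2 (0.113), Nr1h4 (0.0613) and Bhlhe41 (0.0782) lost theirs. Of the 25 interactions, 13 kept their call and 12 lost it under at least 1 alternative, all but Mup11, Bhlhe41, Cyp2b13 and Cyp2c40 only per transcript. Of single mice, only P04, P49 and P69 were left out for the interactions. Mup11 lost it under 7 alternatives (adjusted p 0.05 to 0.103), Bhlhe41 under 8 (0.0512 to 0.17), Cyp2b13 with DESeq2 (0.0747) and Cyp2c40 with limma-voom (0.369). The 2-fold female genes numbered 470 with limma-voom and 289 to 481 on leaving out each mouse in turn, P04 giving 481. Genes whose ratio was higher at 70% than at 0% bean numbered 229 with DESeq2, 538 with limma-voom, 38 transcripts, 132 without P69, 403 without P04 and 351 without P04, P49 and P59. Those lower numbered 127 with upper-quartile normalization, 627 with limma-voom and 53 transcripts. Leaving out mice gave 195 without P69, 199 without P49, 427 without P04 and 408 without the 3 mice. The causes were not tested, except that transcripts split the counts of a gene over more tests (29389). Total calls between the sexes at 70% ran from 3303 per transcript to 5421 with limma-voom, and 51 of 76 counts of list members stayed within 1.5 times. The median log2 fold change moved by under 0.1 under each scaling. No paired analysis was possible because the labels give no replicate numbers shared by the sexes. Depth limits genes at or near 0 in one sex, whose fold changes rest on a few counts.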
